A study of Mus musculus with 12 samples.

Results

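The surgery-by-drug interaction was examined in mouse left ventricle: for every expressed gene, whether the response to dantrolene in hearts under pressure overload differed from the response to the same drug in sham-operated hearts. It was computed as the log2 fold change between dantrolene and control mice after transverse aortic constriction (TAC), minus the same fold change after sham surgery, and was available for 14965 of 25319 counted genes after a filter on low counts. A positive interaction means that the dantrolene group stood higher, relative to its own controls, under TAC than under sham, and a negative interaction means the reverse. All 12 animals were male C57BL/6 mice, 3 in each group, whose surgery was at 8 weeks of age and whose hearts were taken at 12 weeks. The sham control group had the operation without ligation and no drug, and the sham dantrolene group had the same operation and oral dantrolene over 4 weeks, 30 mg per kg each day. The TAC control group had a ligature on the aortic arch and no drug, and the TAC dantrolene group had the ligature and the same course of drug. Whether control mice were given a vehicle is not stated in the labels, the numbers are called biological replicates there, and p-values measure the spread between these mice.

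Dantrolene is a muscle relaxant that binds ryanodine receptors, the channels through which calcium leaves the sarcoplasmic reticulum of muscle cells at each beat. Constriction of the aorta raises the pressure against which the left ventricle pumps. In such hearts the muscle cells are known to enlarge and to return to genes of the fetal heart, including skeletal alpha-actin and the natriuretic peptides, while fibroblasts lay down matrix and ion channel genes are often reduced.

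The libraries held between 25766378 and 38363106 counted reads, and levels are given as CPM (reads scaled to library totals of equal size). The ventricular light chain Myl2 lay between 7669 and 22620 CPM and its atrial counterpart Myl7 between 0 and 1.90 CPM, which is the order of ventricle and matches the labelled tissue. On the first principal component of log2 CPM, which held 41.7% of the variance, 1 library of each group stood apart from the rest: TAC control 1, TAC dantrolene 1, sham control 3 and sham dantrolene 3. Mitochondrially encoded genes took from 1.71% of reads in TAC dantrolene 2 to 22.4% in TAC control 3. The samples are pieces of whole ventricle, so fewer cells of a type and less RNA per cell cannot be told apart in any value below.

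No gene passed the interaction test. edgeR's quasi-likelihood test with Benjamini-Hochberg adjustment called 0 of 14965 genes (0%) at an adjusted p under 0.05, and the smallest adjusted p was 1.00. An unadjusted p under 0.05 was reached by 422 genes (2.82%), of which 232 (1.55%) were positive and 190 (1.27%) negative. Uniform p-values would place 748 genes there, so the 422 are fewer than that. limma-voom also called 0 genes and placed 447 under the unadjusted threshold, whereas DESeq2 called 1 gene, Acta1, at an adjusted p of 0.0018 and placed 507 under it. The median standard error of an interaction was 0.62 log2 units, against 0.44 for the drug response in either surgery arm, because the interaction carries the spread of all 4 groups. Neither arm alone gave a call with edgeR: 0 genes for the drug under TAC (486 genes or 3.25% at an unadjusted p under 0.05) and 0 for the drug under sham (107 genes or 0.715%).

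Within a surgery arm, control and treated mice with the same replicate number deviated together, so the fit with that number as a block within each arm is given beside this count. The libraries that stood apart share a number within each arm. The block and the split on the first principal component are therefore partly the same. With the block, 0 genes were again called, with a smallest adjusted p of 0.18, and 1741 genes (11.6%) had an unadjusted p under 0.05. Leaving out the 4 libraries that stood apart gave 7 called genes, 2 positive and 5 negative, with 2063 of 15069 genes (13.7%) at an unadjusted p under 0.05. Leaving out only TAC dantrolene 1 gave 0 called genes and 1641 at an unadjusted p under 0.05 (10.7%), and leaving out only TAC control 1 gave 0 called and 975 (6.37%). Without only sham control 3, 401 genes (2.62%) were under that threshold, and without only sham dantrolene 3, 286 genes (1.88%). The plot shows these shares by fit. The count depended on TAC control 1, TAC dantrolene 1 and the block far more than on the choice of test or scaling.

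**Figure D1:**
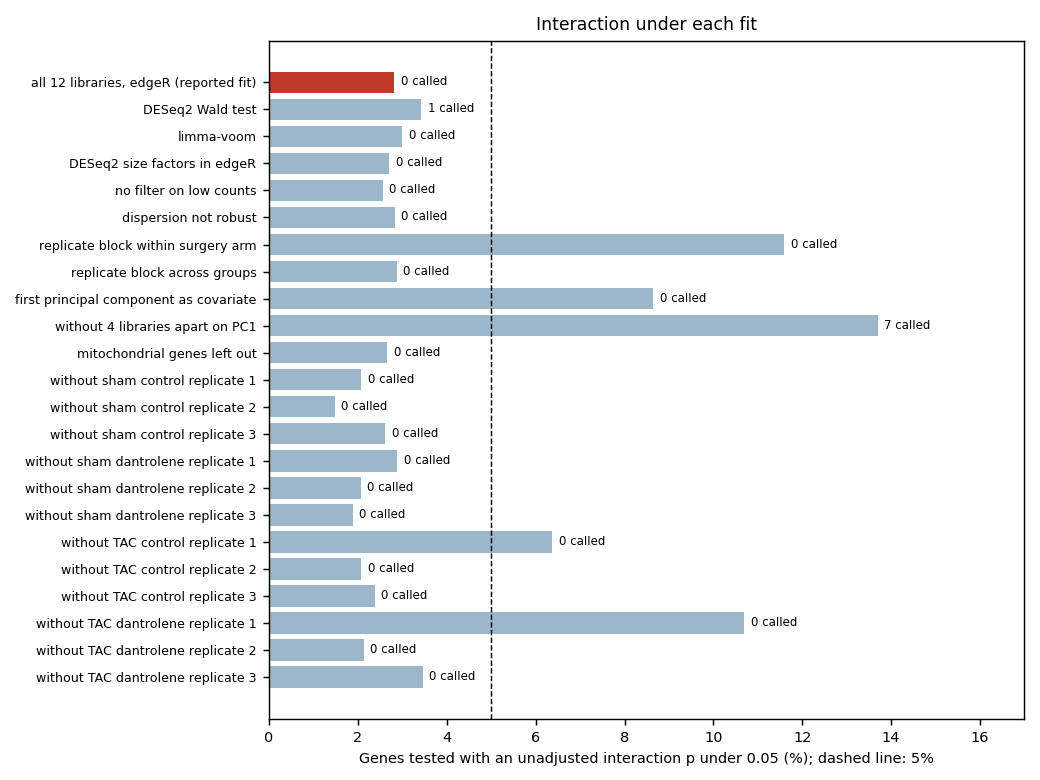
Share of genes tested with an unadjusted interaction p under 0.05 (bars, percent) under each fit, with the number of genes called at an adjusted p under 0.05 beside each bar; the dashed line marks 5%. The reported fit (red, 2.82%) and most fits lie below the line, and the blocked fit, the fit with the first principal component as a covariate, the fit without the 4 libraries apart, and the fits without TAC control 1 or TAC dantrolene 1 lie above it.

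Acta1 had the smallest interaction p of all genes. It encodes skeletal alpha-actin, a thin filament protein of the fetal heart that is used as a marker of hypertrophy, and the counted gene (ENSMUSG00000031972.4) lies on the minus strand of chromosome 8 from 123891769 to 123894751 in GRCm38. The promoters of Acta1, of the atrial natriuretic peptide gene Nppa, which shared its direction, and of Trim63, a muscle gene with the opposite direction, are shown as examples of heart and muscle genes of both directions among the 24 genes with the smallest p. Each line gives the 250 bases before the RefSeq start site in GRCm38.p6, in the direction of transcription, with capitals marking motif matches. They lie at chr8:123894776-123895025 on the minus strand, chr4:148000472-148000721 on the plus strand and chr4:134314870-134315119 on the plus strand.
Acta1: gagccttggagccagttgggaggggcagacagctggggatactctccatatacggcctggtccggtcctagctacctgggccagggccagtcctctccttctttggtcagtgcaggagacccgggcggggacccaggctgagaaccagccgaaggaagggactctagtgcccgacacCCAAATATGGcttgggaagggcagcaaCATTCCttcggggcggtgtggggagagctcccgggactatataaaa
Nppa: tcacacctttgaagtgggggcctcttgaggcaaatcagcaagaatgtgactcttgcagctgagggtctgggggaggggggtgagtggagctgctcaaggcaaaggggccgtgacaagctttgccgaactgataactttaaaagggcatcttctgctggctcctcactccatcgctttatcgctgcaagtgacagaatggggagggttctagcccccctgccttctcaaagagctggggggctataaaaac
Trim63: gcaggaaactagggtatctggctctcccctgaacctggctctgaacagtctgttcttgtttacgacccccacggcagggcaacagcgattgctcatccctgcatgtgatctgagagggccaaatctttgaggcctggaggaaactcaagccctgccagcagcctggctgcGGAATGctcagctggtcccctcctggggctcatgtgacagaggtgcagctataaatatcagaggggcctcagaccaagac

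In the Acta1 window the capitals mark a CArG box, the motif of serum response factor, starting 73 bases before the start site, and CATTCC, the core of the motif of TEAD factors, starting 46 bases before it. The Trim63 window holds CATTCC on the other strand, printed as GGAATG, starting 80 bases before the start site, and the Nppa window holds no match to the motifs searched. Those were the CArG box, the TEAD core CATTCC, the E-box as CACGTG, the heat shock element as GAANNTTC and the GATA motif as AGATAA. Each was searched on both strands, in windows that run from 250 bases before to 50 after the start. Other forms of these motifs, GATA forms included, were not searched. Among the 24 genes with the smallest p, 18 had a window in the RefSeq table, 24 windows in all. A CArG box was found in 2 of these 24 windows and CATTCC in 4, against 1.63% and 14.7% of all 32851 windows. AGATAA was found in 1 (11.2% of all windows) and CACGTG and GAANNTTC in 0 (7.15% and 7.86%). The matches are a description of the letters and show no binding.

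Acta1 stood at 268, 267 and 314 CPM in sham control mice and at 232, 324 and 343 CPM in sham dantrolene mice. It stood at 887, 3708 and 2614 CPM in TAC control mice and at 229.8, 312 and 146 CPM in TAC dantrolene mice. The sham groups overlapped, whereas the lowest TAC control mouse lay above every other library. Mean Acta1 was 10.5-fold lower with the drug than without it under TAC (log2 -3.39) and 1.06-fold higher under sham (0.08). The interaction was -3.47 ± 0.66 (log2, SE; edgeR adjusted p = 1.00). Without each library in turn it lay between -3.86 and -3.01, in the fit without the 4 libraries apart it was -3.87 (adjusted p = 0.025), and with the block it was -3.31 ± 0.51 (adjusted p = 0.23).

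The 12 genes of smallest p with a negative interaction held a second muscle marker, 4 genes of matrix or connective tissue, and immune genes, among others. These 12, and the 12 of smallest p with a positive interaction, were taken by the interaction p itself among genes averaging at least 1 CPM, so their values describe the contrast and add no support to it. Nppa, the gene of atrial natriuretic peptide, stood at 196, 237 and 477 CPM in sham control, 267, 343 and 348 in sham dantrolene, 531, 1926 and 2015 in TAC control and 265, 363 and 112 in TAC dantrolene. All 3 TAC control mice exceeded all 9 others, with TAC control 1 closest to them. Its interaction was -2.67 ± 0.78.

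Among the matrix genes of the 12, all 3 TAC control libraries lay above the other 9 in Fmod, and in Postn, Thbs4 and Pamr1 TAC control 1 lay within the range of other groups. Fmod, fibromodulin, a proteoglycan that binds collagen fibrils, stood at 0.791, 0.541 and 0.756 CPM in sham control, 0.711, 0.871 and 1.94 in sham dantrolene, 8.48, 12.7 and 15.9 in TAC control and 3.32, 3.98 and 1.22 in TAC dantrolene (interaction -2.86 ± 0.73). Postn, periostin, a matricellular protein of activated fibroblasts, stood in TAC control at 3.29, 21.2 and 32.9 CPM and in TAC dantrolene at 1.30, 2.12 and 4.92. In sham hearts Postn stayed between 1.62 and 3.27 CPM with or without the drug, and its interaction was -3.27 ± 0.96. Thbs4, thrombospondin 4, stood in TAC control at 12.0, 45.2 and 42.8 CPM and in TAC dantrolene at 12.9, 4.29 and 6.17 (interaction -2.67 ± 0.77). Pamr1, a secreted protein with a peptidase domain, was 2.89, 14.0 and 8.08 CPM in TAC control and 1.90, 1.83 and 1.88 in TAC dantrolene (interaction -2.35 ± 0.67).

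The other genes of smallest p with a negative interaction ranged from -2.65 to -1.32. Gimap8, a GTPase of lymphocytes, was higher with the drug in sham hearts (0.436, 0.509 and 0.756 CPM without it, 0.927, 1.06 and 2.36 with it) and lower with the drug under TAC (2.44, 1.36 and 3.26 without it, 1.17, 0.652 and 1.03 with it). Neither pair of Gimap8 groups overlapped. Mxra7, Trim30a and Gimap8 were the members of the 12 whose groups were separate in both arms and in opposite directions, where 27 of all genes tested (0.18%) were lower with the drug under TAC and higher with it under sham. Trim30a is an interferon-inducible gene, and Ms4a6c (-2.25 ± 0.64) is a membrane protein of myeloid cells. Anxa8, an annexin, had an interaction of -2.54 ± 0.73.

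The 12 genes of smallest p with a positive interaction showed the opposite layout, with TAC control lowest in most. Plekhf1, an endosomal protein, stood at 21.9, 34.3 and 35.3 CPM in sham control, 12.9, 14.2 and 15 in sham dantrolene, 14.9, 6.84 and 9.79 in TAC control and 22.6, 19.2 and 22.6 in TAC dantrolene. Treated and control mice did not overlap in either arm and were ordered oppositely: mean Plekhf1 was 2.17-fold lower with the drug under sham and 2.04-fold higher with it under TAC. Its interaction was 2.15 ± 0.43 (edgeR adjusted p = 1.00), and 2.19 ± 0.30 with the block (adjusted p = 0.23). Sorcs2, a sorting receptor of the sortilin family, was between 5.82 and 6.76 CPM in TAC control and 11.4, 23.1 and 17.8 in TAC dantrolene. Its sham groups (21.4, 31.5 and 32.5 CPM in control, 22.1, 12.4 and 8.76 in dantrolene) overlapped by 1 mouse, and the interaction was 2.48 ± 0.52.

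Muscle and ion channel genes were among these 12. Trim63, the muscle ubiquitin ligase MuRF1, which tags sarcomere proteins for degradation, stood at 207, 416 and 257 CPM in sham control, 187, 154 and 148 in sham dantrolene, 106, 98.2 and 137 in TAC control and 159, 158 and 225 in TAC dantrolene. Its groups were separate in both arms and the interaction was 1.51 ± 0.43. Kcnq1, the pore of the slow delayed rectifier potassium channel, stood at 54.9, 52.4 and 51.1 CPM in sham control, 44.4, 37.2 and 27.8 in sham dantrolene, 29.6, 27.3 and 20 in TAC control and 36.9, 41.0 and 43.2 in TAC dantrolene (interaction 1.19 ± 0.34). Here too the drug groups lay below control under sham and above it under TAC without overlap. Klhl38, a kelch protein of muscle, was 2.22, 3.81 and 5.64 CPM in TAC control and 5.30, 11.4 and 20.6 in TAC dantrolene, with 1 treated mouse inside the control range (interaction 2.27 ± 0.64).

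The other 7 positive genes had interactions from 1.23 to 2.30. Cacfd1, a membrane protein with a calcium channel flower domain, had the smallest standard error of the 24 genes: it stood in TAC control at 21.8, 22.5 and 21.0 CPM and in TAC dantrolene at 32.9, 37.2 and 36.8, against 29.5, 28.7 and 32.4 in sham control and 23.5, 17.1 and 22.5 in sham dantrolene (interaction 1.23 ± 0.30). Flcn, folliculin, a regulator of lysosomal nutrient signalling, had an interaction of 1.23 ± 0.35. Sv2a, a synaptic vesicle protein, had 2.26 ± 0.58, and Itgb6, an integrin subunit, 1.82 ± 0.52. Rasgef1b, an exchange factor for Ras-family GTPases, had 2.05 ± 0.52, Btbd11 1.81 ± 0.48 and the long noncoding RNA Gm22 2.30 ± 0.61. Flcn, Sv2a, Btbd11 and Itgb6 were, like Plekhf1, Cacfd1, Kcnq1 and Trim63, higher with the drug under TAC and lower with it under sham without overlap in either arm, a layout found in 55 of all genes tested (0.368%). With both directions counted, 82 genes (0.548%) were separate in both arms with opposite order, and 15 (0.1%) with the same order.

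**Figure D2:**
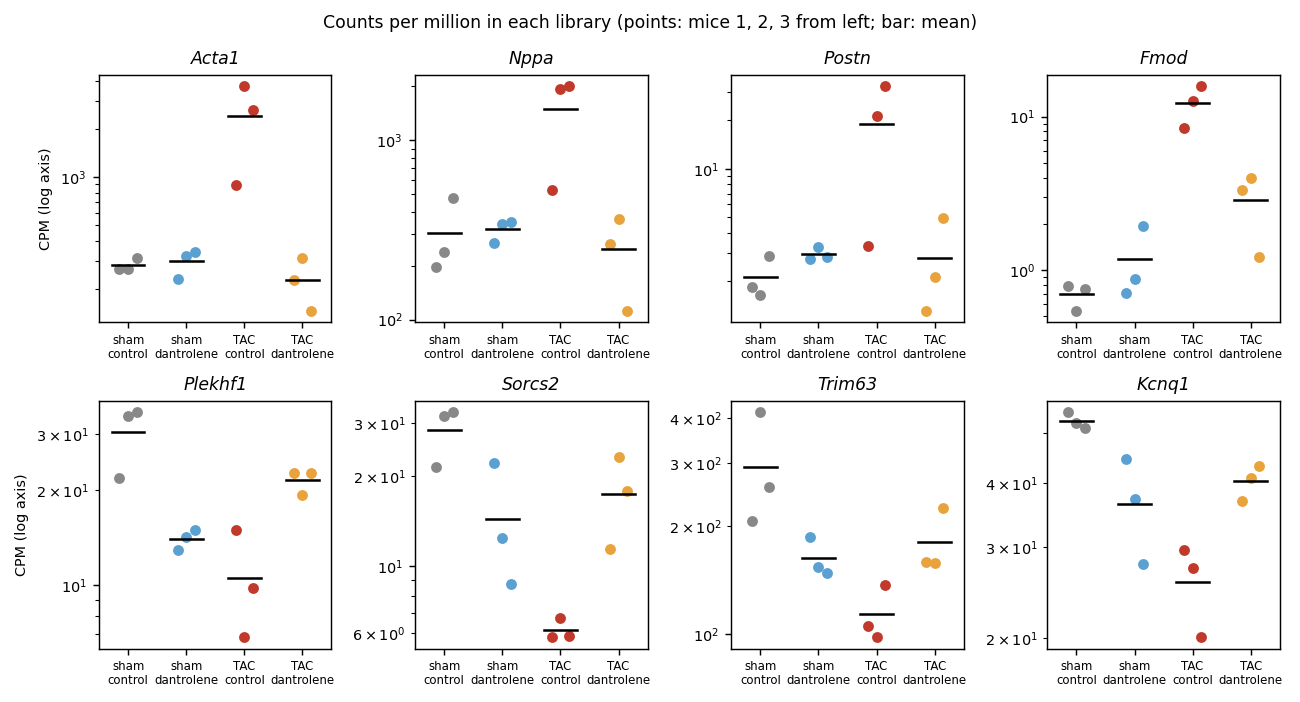
CPM (log axis) of 4 genes with a negative interaction (upper row) and 4 with a positive one (lower row) in each of the 12 libraries, with points for mice 1, 2 and 3 from left in each group and a bar at the mean. In the upper row the mean of TAC control is the highest, though in Postn TAC control 1 lies within the range of other groups. In the lower row sham control is high and TAC control low.

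Across the leave-one-out fits the 24 genes kept their signs. For those named, the range without each library in turn is drawn beside the value from all libraries, and all 24 kept their direction in all 23 other fits. The 24 were chosen by the interaction p in these same libraries, which the other fits reuse. Their kept signs therefore follow in part from the choice and add no support. The widest range for a gene of positive interaction was that of Klhl38, from 1.70 without TAC dantrolene 3 to 2.64 without TAC control 3, and for a gene of negative interaction that of Postn, from -3.96 without TAC dantrolene 3 to -2.62 without TAC control 3. On the additive scale of mean CPM the sign of the interaction differed from the log2 scale in 341 of 14965 genes (2.28%) and in 0 of the 422 at an unadjusted p under 0.05.

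**Figure D3:**
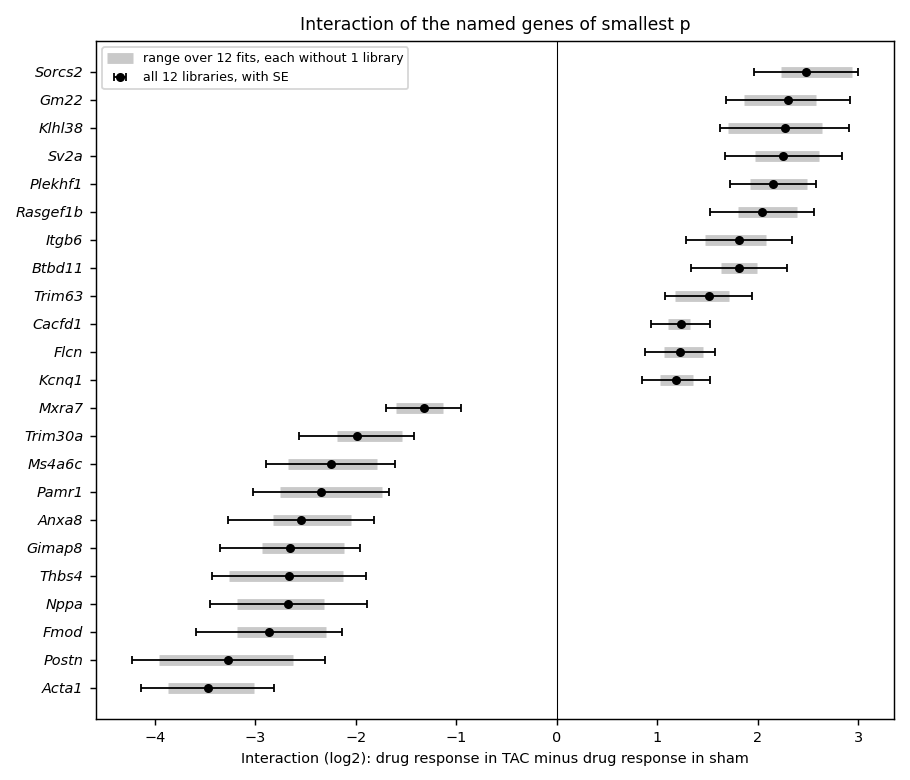
Interaction (log2) of the genes of smallest p in each direction that are named in the text, with points and whiskers for the value and its SE from all 12 libraries and grey bars for the range over 12 fits that each leave out 1 library. No grey bar crosses 0, and Acta1 (-3.47) and Postn (-3.27) lie farthest to the left.

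Over all genes, the 2 drug responses were weakly and inversely related. They share no library, and their correlation across 14965 genes was -0.16 (Pearson) and -0.26 (Spearman), with no p because genes are not independent replicates. It was not stable: Pearson's r was 0.026 without TAC control 1 and -0.0018 without sham dantrolene 3. The response had opposite signs in the 2 arms in 61.3% of all genes and in 403 of the 422 genes at an unadjusted p under 0.05 (95.5%), and it was larger in size under TAC in 60.2% and 75.8% of them. The group farthest from the mean of the other 3 was TAC control in 42.3% of all genes and in 273 of the 422 (64.7%). It was the farthest in all 12 negative genes of smallest p, where it stood above, and in 9 of the 12 positive ones, where it stood below. For those chosen by the interaction p these shares follow in part from the choice and are descriptions.

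**Figure D4:**
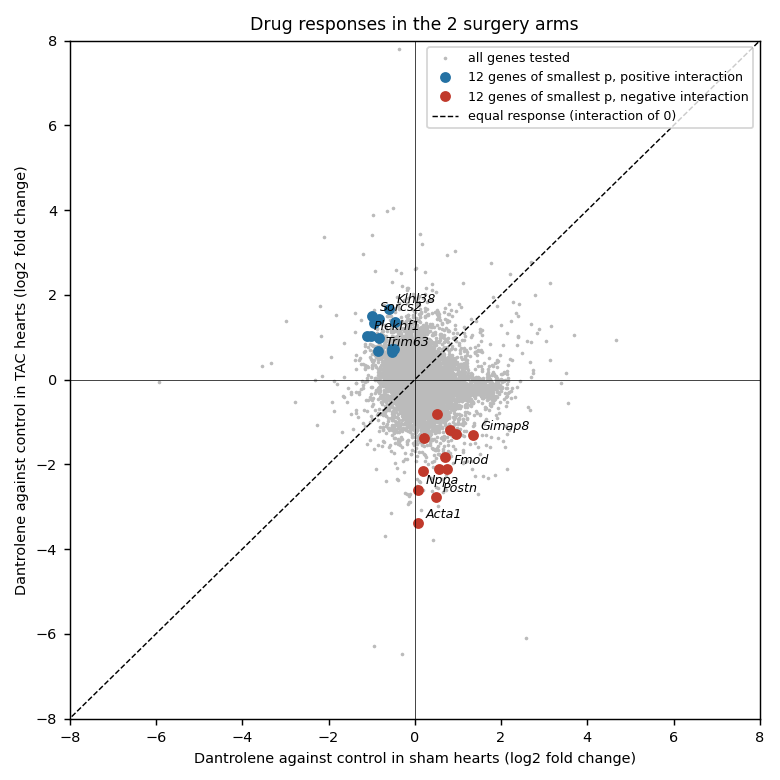
Log2 fold change of dantrolene against control in TAC hearts (vertical) and in sham hearts (horizontal) for all 14965 genes tested (grey), with the 12 genes of smallest p in each direction in blue (positive) and red (negative). On the dashed line the responses are equal, and genes far above it (blue, upper left) or below it (red, lower centre) have an interaction.

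Gene lists were read by counts and medians, beside the same over all genes tested, where 49.5% of interactions were positive, 50.5% negative, and the median was -0.01. Counts at an unadjusted p under 0.05 in every list stand beside 1.55% of all genes positive and 1.27% negative at that threshold. Of 20 genes in the list of the hypertrophy and fetal programme 19 were tested, 11 positive and 8 negative, with a median of 0.13 and 2 at an unadjusted p under 0.05, the negative Acta1 and Nppa. Without TAC dantrolene 2 that median was -0.34. Nppb, the gene of B-type natriuretic peptide, did not share the layout of Nppa. It was 365, 323 and 360.0 CPM in sham control, 504, 687 and 889 in sham dantrolene, 1357, 1585 and 900.1 in TAC control and 2135, 789.6 and 164 in TAC dantrolene. The treated TAC mice thus covered the whole range of the other groups, and the interaction of Nppb was -1.30 ± 0.90. Ankrd1, a stretch-responsive muscle protein, had -1.51 ± 0.78. Myh6, the adult myosin heavy chain, had 1.4 ± 0.83 with TAC dantrolene mice at 3152, 18872 and 14696 CPM, and Myh7, its fetal counterpart in the mouse, 0.57 ± 1.08.

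Fibroblast and matrix genes had mostly negative interactions. Of the 32 genes that mark activated fibroblasts 28 were tested, 22 of them negative and 6 positive, with a median interaction of -1.22, made of a median drug response of -0.92 under TAC and 0.05 under sham. At an unadjusted p under 0.05 were 13, all negative, among them Fmod, Thbs4 and Postn. Of all genes tested, 190 (1.27%) were negative at that threshold. Cilp, a cartilage matrix protein that pressure-loaded hearts express, was chosen after its values were seen, since it is 1 of the 7 genes called without the 4 libraries apart. It stood in TAC control at 9.50, 69.3 and 69.3 CPM and in TAC dantrolene at 4.13, 9.83 and 14.3, and between 4.17 and 7.93 CPM in all sham libraries (interaction -2.50 ± 0.87). In the list of collagen and matrix genes 36 of 43 were negative, with a median of -0.59 and 6 at an unadjusted p under 0.05. In 6 of the 43 the TAC dantrolene mice lay below the TAC control mice without overlap, where 2.08% of all genes did so. Col12a1, a collagen that links fibrils, had -2.36 ± 0.82 and Mfap4, a microfibril protein, -1.63 ± 0.61, whereas Col1a1, the main fibrillar collagen, had -1.08 ± 0.57.

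Single libraries and markers of resting fibroblasts varied with these lists. The summed level of the activated fibroblast list was 440 CPM in TAC control 1 but 889 and 855 CPM in the other 2 TAC control mice, with 478, 739 and 471 CPM in TAC dantrolene mice and 331 to 504 CPM in sham mice. Resting fibroblast markers, all 14 tested, had 11 negative interactions, a median of -0.44 and 1 at an unadjusted p under 0.05, Dpt. That median was -0.82 without TAC dantrolene 1 and -0.15 without sham dantrolene 3. Their sums ran from 3011 to 3626 CPM in sham control, 2703 to 4559 in sham dantrolene, 3193 to 6241 in TAC control and 3254 to 3714 in TAC dantrolene. The part of fibroblast number in the fibroblast and matrix values was not tested.

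**Figure D5:**
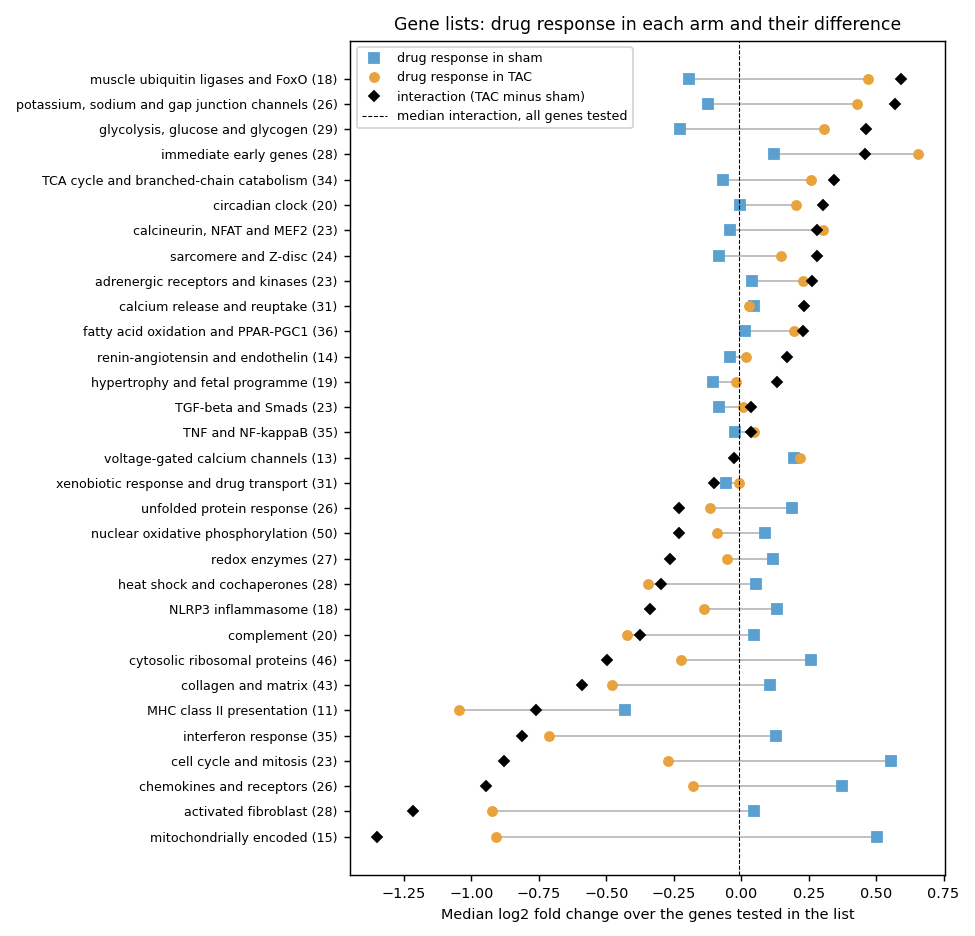
Median log2 fold change of dantrolene against control in sham (blue squares) and TAC hearts (orange circles), and median interaction (black diamonds), for each pathway list with its number of genes tested in parentheses. Lists run from a median interaction of 0.59 for muscle ubiquitin ligases to -1.35 for mitochondrially encoded genes, and the dashed line is the median of all genes tested.

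Genes of calcium release and reuptake, the machinery that dantrolene acts on, were spread on both sides of 0. Of 32 listed genes 31 were tested, 20 positive and 11 negative, with a median interaction of 0.23. At an unadjusted p under 0.05 were 2, both positive, where 1.55% of all genes tested were positive. Ryr2, the cardiac ryanodine receptor, stood at 186, 229 and 159 CPM in sham control, 205, 309.8 and 115 in sham dantrolene, 154, 213 and 225 in TAC control and 179.6, 309 and 367 in TAC dantrolene. All 4 groups overlapped and its interaction was 0.39 ± 0.54. Atp2a2, the pump SERCA2 that returns calcium to the reticulum, had 0.86 ± 0.70, with TAC dantrolene mice at 3108, 8152 and 10434 CPM. The 2 genes under the unadjusted threshold were Atp2a1, the skeletal muscle form of the pump, which was at most 2.16 CPM in every library (1.88 ± 0.74), and Camk2a, a calmodulin kinase (0.87 ± 0.40). Hrc, a calcium-binding protein of the reticulum, had 0.73 ± 0.42.

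Channel genes leaned the other way from matrix. In the list of potassium, sodium and gap junction channels 21 of 26 tested genes (27 listed) were positive, with a median interaction of 0.57, from a median drug response of 0.43 under TAC and -0.12 under sham. Kcnq1 and Kcnj5, a subunit of the acetylcholine-gated potassium channel (1.56 ± 0.66), were at an unadjusted p under 0.05. Kcnj11, the pore of the ATP-sensitive potassium channel, stood in TAC control at 30.5, 23.8 and 17 CPM and in TAC dantrolene at 32.3, 48.9 and 42.1, an interaction of 0.85 ± 0.41. Voltage-gated calcium channels had 6 positive and 7 negative of 13 tested (15 listed) and a median of -0.03. That median was 0.43 without TAC control 3. Without the 4 libraries apart 9 of 12 tested were positive with a median of 0.52, where 7838 of all 15069 genes tested were positive. With all 12 libraries the calcium channel gene at an unadjusted p under 0.05 was Cacng6, an auxiliary subunit. It stood in TAC control at 0.444, 0.852 and 0.647 CPM and in TAC dantrolene at 1.78, 3.60 and 2.57 (1.78 ± 0.51). Cacng6 was also higher with the drug under sham, without overlap in either arm, so its responses differed in size and not in sign.

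Metabolic and protein turnover genes of muscle had mostly positive interactions. Of the 18 muscle ubiquitin ligases and FoxO genes 15 were positive, with a median of 0.59. Trim63 and Asb2 were the 2 at an unadjusted p under 0.05, where 1.55% of all genes tested were positive. Asb2, a ligase subunit that controls muscle mass, stood at 823, 912 and 930.1 CPM in sham control, 703, 564 and 449 in sham dantrolene, 720.0, 466 and 335 in TAC control and 828, 767 and 732 in TAC dantrolene (1.25 ± 0.45). Neither pair of Asb2 groups overlapped. For glycolysis, glucose uptake and glycogen 25 of 29 genes were positive with a median of 0.46. In 10 of these 29 the sham dantrolene mice lay below the sham control mice without overlap, where 4.38% of all genes did so, and in 3 the TAC dantrolene mice lay above their controls, where 2.68% of all genes did.

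Glycolysis genes had 0 at an unadjusted p under 0.05. Slc2a4, the insulin-responsive glucose transporter, stood at 494, 517 and 552 CPM in sham control and 419.9, 372 and 340.4 in sham dantrolene, and at 393, 377 and 293 in TAC control and 404, 349 and 519.8 in TAC dantrolene (0.73 ± 0.37). The sham groups were separate and the TAC groups overlapped. In the list of the TCA cycle and branched-chain catabolism 29 of 34 were positive with a median of 0.34, and Pcx, pyruvate carboxylase, was at an unadjusted p under 0.05 (0.92 ± 0.34). For fatty acid oxidation and its PPAR and PGC1 regulators 24 of 36 were positive with a median of 0.23. Ppargc1a, the coactivator PGC1-alpha, had 1.11 ± 0.45 and Angptl4, an inhibitor of lipoprotein lipase and a PPAR target, -2.83 ± 1.28.

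Mitochondrially encoded genes had the lowest median of the pathway lists, -1.35, with all 15 negative. They held 3 at an unadjusted p under 0.05 (1.27% of all genes tested were negative there). Their median drug response was -0.91 under TAC and 0.50 under sham, and in 7 of the 15 the sham dantrolene mice lay above their controls without overlap, where 2.99% of all genes did. Their sum was 141420, 159720 and 222650 CPM in TAC control and 113470, 13614 and 149230 CPM in TAC dantrolene. TAC dantrolene 2 was thus far below every other library, and without it the median interaction of the list was -0.78. mt-Co3 was 3265 CPM in TAC control 1 and at most 504 CPM elsewhere, and its interaction of -3.86 ± 1.36 became -1.50 without that library. Nuclear genes of oxidative phosphorylation had a median of -0.23, with 35 of 50 negative and 0 at an unadjusted p under 0.05. Their median ran from -0.87 without TAC dantrolene 1 to 0.05 without TAC dantrolene 2, so its sign rested on 1 library. Cytosolic ribosomal protein genes were negative in 45 of 46, with a median of -0.50 and 0 at an unadjusted p under 0.05. That median was 0.02 without TAC control 1 and -1.585 without TAC dantrolene 1.

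Immune lists leaned negative together with the markers of immune cells. Interferon response genes were negative in 34 of 35, with a median of -0.81 (-1.28 without TAC dantrolene 1 and -0.55 without TAC control 3). At an unadjusted p under 0.05 were 2, both negative, where 190 of all genes tested (1.27%) were negative. Ifit3, an antiviral effector, stood at 8.92, 6.20 and 7.56 CPM in sham control, 10.5, 11.2 and 8.31 in sham dantrolene, 5.55, 13.4 and 18.1 in TAC control and 3.40, 3.85 and 6.58 in TAC dantrolene (-1.83 ± 0.58). The other was Igtp, a GTPase induced by interferon gamma, which was 239.6 CPM in TAC control 3 and at most 32.7 CPM elsewhere. Its interaction of -2.75 ± 1.19 was -0.16 without that library, and that of Iigp1, from the same family, turned from -3.51 to 0.23. Chemokines and their receptors were negative in 22 of 26 tested (28 listed), with a median of -0.95 and 3 at an unadjusted p under 0.05: Ccl5, Ccr1 and Ccl12. That median was -1.24 without TAC dantrolene 1 and -0.47 without sham dantrolene 3. The complement list was negative in 18 of 20 tested (23 listed), with a median of -0.38 (-0.88 without TAC dantrolene 1 and -0.14 without sham dantrolene 3). MHC class II presentation genes, 9 of 11 negative (12 listed), had a median of -0.76 that turned to 0.21 without TAC control 3.

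Of the 2 lists of inflammatory signalling, TNF and NF-kappaB genes were split evenly and NLRP3 inflammasome genes were mostly negative. TNF and NF-kappaB genes had 18 positive and 17 negative of 35 tested (37 listed), a median of 0.04 and 0 at an unadjusted p under 0.05. Tnf had an interaction of -0.68 ± 0.98 at 0.189 to 2.59 CPM, and Nfkb1, a subunit of the transcription factor, 0.52 ± 0.52. NLRP3 inflammasome genes had 13 negative of 18 tested (22 listed), a median of -0.34 and 0 under the threshold. Their median was -0.63 without TAC control 1 and -0.15 without sham dantrolene 3. Nlrp3, the sensor, was 1.07 CPM or lower in every library and had -0.39 ± 1.06, Il1b, its cytokine, -0.56 ± 1.38, and Casp1, the protease, -1.90 ± 0.98. The signs of Nlrp3 and Il1b turned in the fit without the 4 libraries apart (0.04 and 0.71).

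Immune cell markers had these values in the same libraries. Macrophage markers, all 22 tested, had 20 negative interactions, a median of -0.59 and 0 at an unadjusted p under 0.05. The median was -1.11 without TAC dantrolene 1 and -0.28 without sham dantrolene 3. Without the 4 libraries apart 10 of the 22 were negative at an unadjusted p under 0.05, where 942 of all 15069 genes tested were. The macrophage sums ran from 733.7 to 1433 CPM in sham control, 827 to 2125 in sham dantrolene, 1274 to 1974 in TAC control and 611 to 2282 in TAC dantrolene. The highest of each dantrolene group was a library that stood apart, sham dantrolene 3 and TAC dantrolene 1. T and NK cell markers were negative in all 10 tested of 14, with sums of at most 13 CPM and a median of -1.32 (-2.12 without TAC dantrolene 1 and -0.67 without sham dantrolene 3). Neutrophil markers were negative in all 5 tested of 9, and their sum was 74.7 CPM in sham dantrolene 3 and at most 22.1 CPM elsewhere. Without sham dantrolene 3 the median of the neutrophil list turned from -1.69 to 0.56, and S100a9, a calcium-binding protein of neutrophils, from -2.12 to 0.94. The B cell list had 6 negative of 7 tested (10 listed), and its markers left out of the test, Ms4a1, Cd22 and Pax5, had at most 11 reads in any library. The part of immune cell numbers in the immune lists was not tested.

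Markers of the other cell types were mixed. Cardiomyocyte markers were 5 positive and 5 negative with a median of -0.03 (-0.27 without TAC dantrolene 1 and 0.31 without TAC control 1), and their sums overlapped between all groups (62670 to 131900 CPM over the 12 libraries). Endothelial markers were negative in 13 of 16 with a median of -0.21 (-0.08 without TAC dantrolene 3) and smooth muscle and pericyte markers positive in 9 of 14 with a median of 0.37. Epicardial and mesothelial markers, 9 of 12 tested, were negative in 7 with a median of -1.15 (-0.21 without TAC control 1), but their sums reached at most 45.4 CPM. Atrial and conduction markers were positive in 6 of 10 tested (12 listed). Bmp10, an atrial marker, was not in the count table. The atrial sum was 831, 2045 and 2120 CPM in TAC control, where Nppa alone was 531, 1926 and 2015 CPM. In TAC dantrolene the sum was 529.9, 530.3 and 222 CPM, where Nppa alone was 265, 363 and 112 CPM. The difference in this sum therefore mostly restates Nppa, the member under the unadjusted threshold.

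Stress and cell cycle lists had more negative than positive interactions. Heat shock genes were negative in 20 of 28 with a median of -0.30 (-0.13 without TAC control 2), and Dnaja1, a cochaperone, was 20.6, 41.0 and 71.9 CPM in TAC control and 17.7, 13.8 and 25.2 in TAC dantrolene (-1.81 ± 0.57). Unfolded protein response genes were negative in 19 of 26 with a median of -0.23, which lay between -0.40 without sham dantrolene 3 and -0.11 without TAC control 2. Ddit3, the stress transcription factor CHOP, was higher with the drug under sham (17.6, 16.4 and 13.6 CPM without it, 26.1, 19.5 and 18.2 with it) and lower with it under TAC (22.2, 30.3 and 23.8 without it, 21.2, 11.1 and 15 with it), an interaction of -1.12 ± 0.40. Redox enzymes were negative in 17 of 27 with a median of -0.26 (-0.59 without TAC dantrolene 1 and -0.02 without TAC control 1), with Mt2, a metallothionein, at -2.37 ± 0.77. Cell cycle genes were negative in 19 of 23 tested with a median of -0.88, at sums of 108 to 176 CPM over the 12 libraries. That median was -1.36 without TAC dantrolene 1, -0.33 without sham dantrolene 3 and -0.24 without the 4 libraries apart.

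Immediate early genes were positive in 21 of 28 with a median of 0.46. At an unadjusted p under 0.05 were 3 positive and 1 negative (1.55% and 1.27% of all genes tested). Without TAC dantrolene 2 that median was -0.14. Nr4a3, an orphan nuclear receptor induced by activity, was 46.1 CPM in TAC dantrolene 2 and at most 6.84 CPM elsewhere, and its interaction of 4.64 ± 1.63 was 1.56 without that library. Ier3, the negative member, was 61.9, 68.4 and 56.0 CPM in TAC control and 44.3, 26 and 47.2 in TAC dantrolene, against 44.6, 49.4 and 52.6 in sham control and 61.5, 58.2 and 82.8 in sham dantrolene. Its groups were separate in both arms in opposite directions (-1.13 ± 0.37). Among xenobiotic response genes, 14 positive and 17 negative of 31 tested (34 listed), Cyp1a1, the enzyme induced through the aryl hydrocarbon receptor, was 206 CPM in TAC dantrolene 2 and at most 11.5 CPM elsewhere. Its interaction of 4.56 ± 1.74 was 0.96 without that library. Circadian clock genes were 11 positive and 9 negative of 20 tested with a median of 0.30 (-0.38 without TAC dantrolene 3), and Nr1d1, a clock repressor, was 16.9, 97.5 and 107 CPM in TAC control and 22.0, 22.3 and 48.9 in TAC dantrolene (-2.06 ± 0.75).

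The remaining lists concern the contractile apparatus and signalling. Sarcomere and Z-disc genes were positive in 15 of 24 with a median of 0.28. Without the 4 libraries apart 12 were positive and 12 negative, with a median of -0.02. Calcineurin, NFAT and MEF2 genes were positive in 18 of 23 tested (24 listed) with a median of 0.28 and 1 at an unadjusted p under 0.05, Nfatc2 (1.00 ± 0.43). Without TAC dantrolene 3 the calcineurin median was -0.01, and without TAC dantrolene 1 it was 0.52. Adrenergic receptors and their kinases were positive in 16 of 23 tested (25 listed), with a median of 0.26 (0.08 without TAC control 1) and Grk5, a receptor kinase of heart muscle, at -0.93 ± 0.38. TGF-beta genes were 13 positive and 10 negative of 23 tested (24 listed), with Smad3, a signal transducer, at 1.11 ± 0.44 and Ltbp2, a matrix protein of the same pathway, at -2.60 ± 1.14. Renin-angiotensin and endothelin genes were 8 positive and 6 negative of 14 tested (16 listed), and their median of 0.17 was -0.18 without TAC control 1 and 0.57 without TAC control 3.

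Without the 4 libraries apart, 2 mice a group remained and 7 genes were called by edgeR. Acta1 (-3.87, adjusted p = 0.025), Thbs4 (-3.19, adjusted p = 0.025) and Cilp (-2.87, adjusted p = 0.038) were negative there, as were Rbp7 (-3.39, adjusted p = 0.0072), a retinol-binding protein, and Mfap5 (-2.37, adjusted p = 0.038), a microfibril protein. Egr2 (3.95), an immediate early transcription factor, and Lrrc4b (2.78) were positive, each with an adjusted p of 0.038. Rbp7, Egr2, Lrrc4b and Mfap5 were named after their values were seen. In all 12 libraries Rbp7 stood in TAC control at 61.1, 69.3 and 58.8 CPM and in TAC dantrolene at 72.5, 13.6 and 13.7, and at 12.5 to 16.2 CPM in sham control and 28.6 to 77.5 CPM in sham dantrolene. TAC dantrolene 1, left out of that fit, was the library at 72.5 CPM. With all 12 libraries the interaction of Rbp7 was -2.58 ± 0.83 (edgeR adjusted p = 1.00), and without TAC dantrolene 1 alone it was -3.89. Without the 4 libraries apart 14 of 28 activated fibroblast genes were negative at an unadjusted p under 0.05, 19 of 43 matrix genes and 19 of 35 interferon response genes. Also negative at that threshold were 26 of 46 cytosolic ribosomal protein genes, 16 of 50 nuclear oxidative phosphorylation genes, 10 of 22 macrophage markers and 5 of 14 resting fibroblast markers. By contrast 11 of 26 potassium, sodium and gap junction channel genes were positive, where 942 and 1121 of 15069 genes were negative and positive in all.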

How the data were processed

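Polyadenylated RNA of the left ventricle was made into directional libraries and sequenced in pairs of 150 nucleotides, per the labels' protocols, 3 mice in each of 4 groups placed by their titles. The authors deposited counts, whole reads per gene, for 25319 genes with 0 columns left without a sample. Per the submitters' processing notes, TopHat2, bcl2fastq, edgeR and the build GRCm38 were used. How reads were assigned to genes, strand included, is not given in the sources used here, so overlapping genes and paralogs may share reads. A table of FPKM values, made by the authors from the same libraries, was not used.

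Counts entered edgeR 4.0.16 in R 4.3.3 (limma 3.58.1). filterByExpr (minimum count 10, minimum total 15) took out 0.0418% of the counts and left 14965 genes, libraries were scaled by TMM, and 4 group means were fitted with robust quasi-likelihood dispersions and 8 residual degrees of freedom. Tests were two-sided with Benjamini-Hochberg adjustment over all genes tested and a threshold of 0.05. Each standard error (SE) was derived from the test, as the absolute log2 fold change divided by the square root of the quasi-likelihood F. The common biological coefficient of variation was 0.443, and this spread limits the interaction more than counting noise at these depths. Coordinates are from GENCODE vM21 (25116 genes matched), promoters from RefSeq on GRCm38.p6.

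Same-numbered mice of a surgery arm correlated in their deviations from the group means (r from 0.3 to 0.672, 6 of 6 over 0.1), which is where the pairing comes from. Differently numbered mice of an arm ranged from -0.616 to 0.375. The same-numbered pairs include the libraries that stood apart (sham 3, r = 0.672, and TAC 1, r = 0.556). Among sham mice 1 and 2 the number made little difference: same-numbered pairs had 0.465 and 0.366, and differently numbered ones 0.375 and 0.305. The 12 genes of smallest interaction p per direction with a mean of at least 1 CPM, 16 index genes and up to 3 genes per list of smallest p were named, and any other gene is said to be chosen after its values were seen. The contrast, the gene lists and the index genes were chosen with earlier results of these data known, so no list is independent support. Alternatives were DESeq2 1.42.0, limma-voom, DESeq2 size factors, no filter, dispersions without robust estimates, 2 replicate blocks, the first principal component as covariate, a prior count of 2, an additive scale, leaving out mitochondrial genes, 4 libraries, or each library in turn. The results of 3 genes that these rules would name are not reported here.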

Additional observations from a re-analysis of the deposited data

How the results depend on the processing

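The interaction called 0 genes in edgeR with all 12 libraries and in each fit without 1 library (range 0 to 0), but 1 with DESeq2 and 7 once the 4 libraries that stood apart were left out. The drug under TAC called 12 genes with DESeq2 (3 higher and 9 lower), 1 with no filter on low counts, 478 without the 4 libraries apart (248 higher and 230 lower), and 0 to 1 without each library in turn, the 1 being Acta1 without TAC control 1. The drug under sham called 0 throughout. With the replicate block within the surgery arm, which pairs same-numbered mice, the interaction called 0 genes and had 1741 at an unadjusted p under 0.05 against 422, while a block across all groups had 429, and neither block changed another call. The covariate fit had 1295 (8.65%), the fit with no filter 649 of 25319, and the fits without 1 library 227 (without sham control 2) to 1641 (without TAC dantrolene 1). Pearson's r between the drug responses, -0.1643, was -0.01551 with no filter and lay between -0.2391 and 0.02614 without each library in turn. Of 2469 values of 103 named genes over the alternatives 2452 were unchanged, 8 passed the threshold and 9 turned sign. Unchanged means the same direction and side of the threshold, and the size was not compared. Igtp, at -2.75 with all libraries and -0.16 without TAC control 3, thus counts as unchanged. For a prior count of 2 and the additive scale, only the direction was compared. Without the 4 libraries apart the interaction of Nlrp3 was 0.04406, of Il1b 0.7076, of Upk3b 1.234 and of S100a9 0.7054. Without each library in turn, 5 genes turned sign: the interaction of Il1b lay between -2.254 and 0.4188 and that of S100a9 between -3.808 and 0.937, both highest without sham dantrolene 3. The interaction of Iigp1 lay between -4.605 and 0.2291 (without TAC control 3), that of Nlrp3 between -1.695 and 0.04941 (without TAC dantrolene 1), and the interaction of Myh7 between -0.4647 (without TAC dantrolene 2) and 1.696. The causes were not tested. With 3 mice a group the median standard error of the interaction was 0.62 log2 units.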

Other observations

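Of the 82 genes whose groups were separate in both surgery arms with opposite order, 55 were higher with dantrolene under TAC and lower with it under sham. Of these 55, 4 are given here, named after their values were seen. Rrad, a small GTPase that holds back calcium channels, stood at 363, 355 and 283 CPM in sham control, 276, 111 and 237 in sham dantrolene, 154, 61.7 and 80.5 in TAC control and 225, 314 and 184 in TAC dantrolene (interaction 1.97 ± 0.58, edgeR adjusted p = 1.00). Srpk3, a muscle kinase of splicing factors, had 1.18 ± 0.34, Ky, a muscle cytoskeletal protein, 1.46 ± 0.46, and Gpr157, an orphan receptor, 1.67 ± 0.48. In each of these 4 genes the mean of sham control was the highest of the 4 groups and that of TAC control the lowest.

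The genes at an unadjusted p under 0.05 differed in level by direction. The 232 positive ones had a median of 14.1 CPM over the 12 libraries and the 190 negative ones a median of 2.21 CPM, against 7.88 CPM for all genes tested, and 91.8% and 86.3% of them were protein-coding.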
